A study of Mus musculus with 32 samples.

Results

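Lipid-laden macrophages, the foam cells of smoke-exposed lungs, were represented by 10 genes: Trem2, Gpnmb, Lgals3, Cd36, Lpl, Fabp4, Fabp5, Plin2, Abcg1 and Apoe. They were taken by gene symbol from a table of raw counts for 35275 genes, and each symbol matched 1 row. The data were bulk RNA-seq of whole lung from C57B/6 mice, in 32 libraries of 8 groups and 2 experiments. In experiment 1, mice without surgery were kept for 5 months in cigarette smoke (5 female and 5 male libraries) or in room air (3 female and 3 male libraries). In experiment 2 every mouse was female and breathed smoke. After ovariectomy there were 3 libraries at 3 months and 5 at 5 months, and after sham surgery there were likewise 3 at 3 months and 5 at 5 months. No group of experiment 2 breathed air, so its comparisons concern surgery and time under smoke. The labels give no ages and do not say that libraries came from separate animals, so p-values measure the spread between libraries, which may be technical.

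Alveolar macrophages clear surfactant lipid from the airspace, and under smoke they are known to fill with lipid droplets. Lipid enters through scavenger receptors and lipases, is carried by fatty acid binding proteins, is stored as droplets, and leaves as cholesterol handed to lipoproteins by exporters that the sterol-sensing receptor LXR controls. TREM2, a lipid-sensing receptor, and GPNMB, a lysosomal glycoprotein, mark the lipid-associated state of macrophages in several tissues. Most of the 10 genes are not macrophage genes alone. Cd36 and Fabp4 are also strong in capillary endothelium and adipocytes, Lpl in adipocytes and lipofibroblasts, Lgals3 in epithelium, and Apoe in liver.

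Library totals ranged from 13790052 to 24497332 counts, and the 10 genes had between 64 and 25031 counts per library, so all of them passed the filter on low counts in both experiments. Sftpc, the surfactant gene of alveolar type 2 cells, was between 53870 and 86600 TPM in every library, which fits the tissue label. TPM, a library-scaled transcript abundance, is a level per gene length. In 7 libraries the liver transcript Alb exceeded 100 CPM, that is counts scaled to the library total: ovariectomy at 3 months libraries 2 and 3, sham at 5 months libraries 1 and 2, ovariectomy at 5 months library 5, female air library 2 and male air library 1. The endothelial gene Cdh5 stood at 187 to 478 TPM in experiment 1 and at 52.5 to 116 TPM in experiment 2. Since surgery and experiment go together, the experiments were not tested against each other. In bulk tissue, fewer cells of a type and less RNA per cell cannot be told apart.

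Averaged over the 32 libraries, the 10 genes spanned a wide range of levels per length. Apoe, the apolipoprotein that macrophages secrete with exported cholesterol, averaged 1180 TPM (range 766 to 1840). Cd36, the fatty acid and oxidised-lipoprotein receptor, followed at 619 TPM (467 to 823), and Lgals3, the lectin galectin-3, at 295 TPM (213 to 401). Fabp4, a fatty acid carrier, averaged 197 TPM (77.3 to 341), Plin2, the coat protein of lipid droplets, 162 TPM (121 to 235), and Lpl, the lipase that frees fatty acids from lipoproteins, 128 TPM (76.7 to 209). Fabp5, the second carrier, averaged 74.9 TPM (44.7 to 125), and Abcg1, a cholesterol exporter, 49.1 TPM (33.6 to 73.8). The least abundant were Gpnmb at 10.8 TPM (7.31 to 29.6) and Trem2 at 2.94 TPM (1.52 to 7.04). The deposited gene lengths set these levels: Trem2 was given 4784 bases, whereas its longest annotated coding transcript has 1088, so its level per length is understated if that transcript is the one expressed. Fabp5 was likewise given 3238 bases against 987, and Fabp4 637 against 896, so the places of these 3 genes in the order are uncertain.

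**Figure D1:**
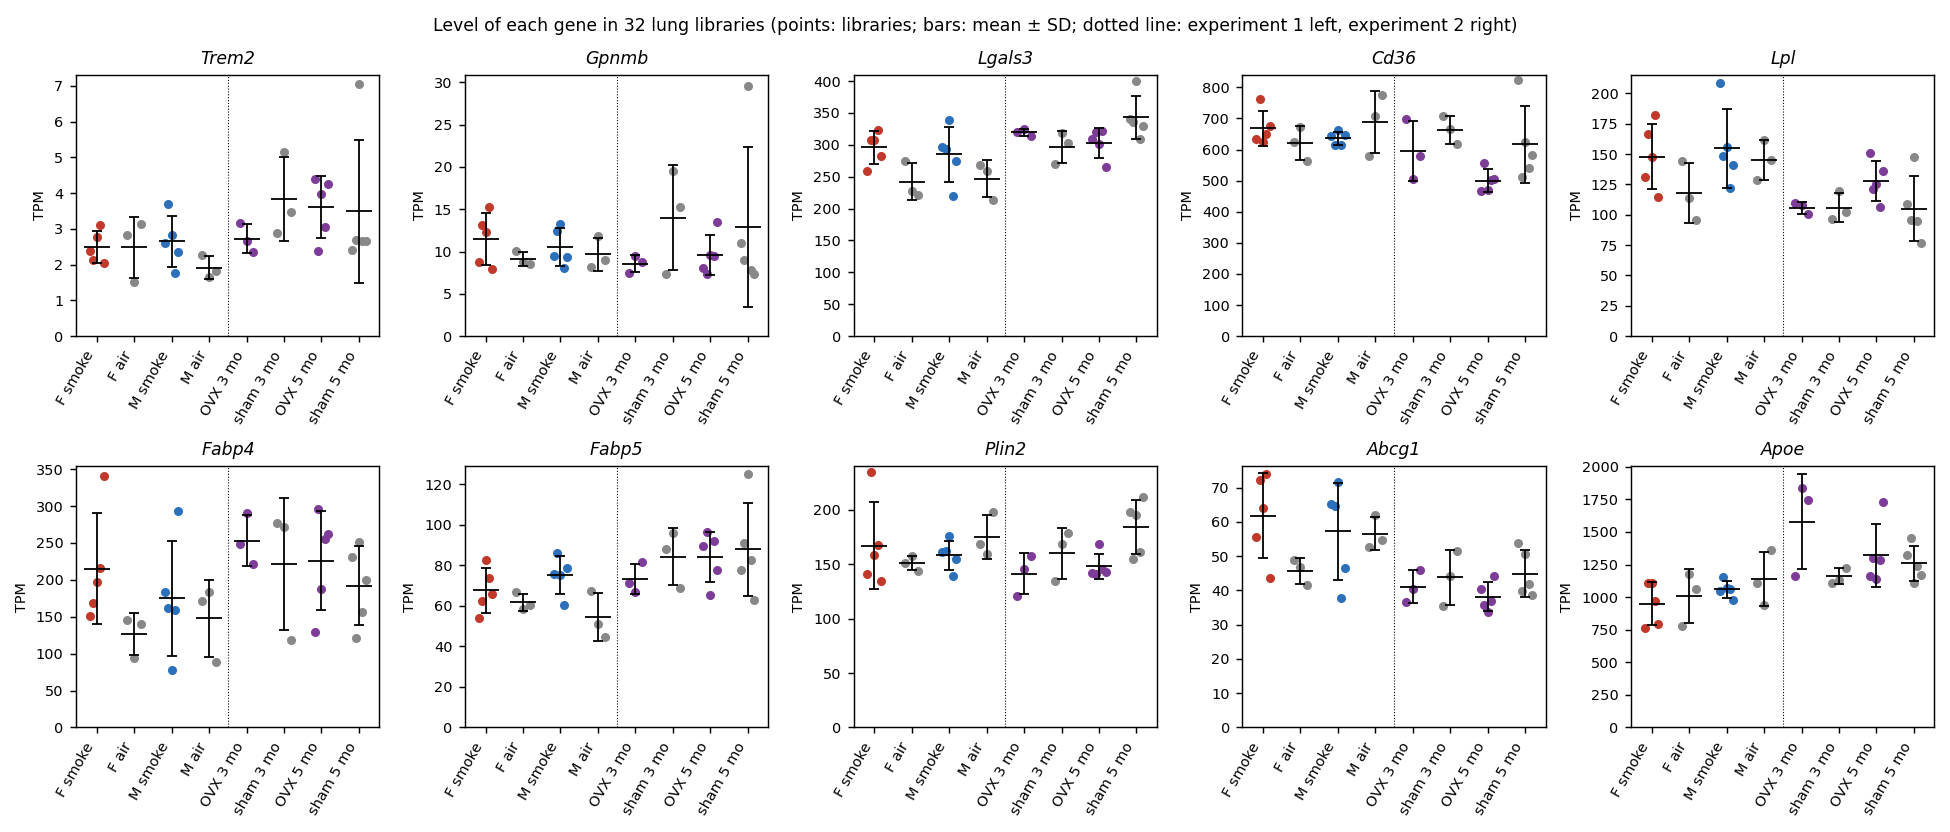
TPM of each gene (vertical axis, from 0) in every library (points) of the 8 groups (horizontal axis; F female, M male, OVX ovariectomy, mo months of smoke), with the mean and SD of each group as bars. Within each experiment the groups overlap for most genes, and sham at 5 months library 3 stands alone in Gpnmb (29.6 TPM) and Trem2 (7.04 TPM).

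The order of the group means differed from gene to gene. For each gene, the range over libraries in the most variable group was wider than the distance between the highest and lowest group means. The highest group mean was 2.01 times the lowest for Trem2, 1.99 times for Fabp4, and between 1.3 and 1.66 times for the other 8 genes. In experiment 1, Trem2 averaged 2.49 ± 0.448 TPM in female smoke, 2.49 ± 0.855 in female air, 2.65 ± 0.707 in male smoke and 1.91 ± 0.318 in male air (SD, n = 5 in smoke and 3 in air). In experiment 2 it averaged 2.72 ± 0.405 TPM after ovariectomy and 3.83 ± 1.17 after sham surgery at 3 months (n = 3 each), and 3.61 ± 0.868 after ovariectomy and 3.49 ± 1.99 after sham surgery at 5 months (n = 5 each). Within each experiment the Trem2 ranges of the groups overlapped. Every male air library (1.64 to 2.27 TPM) lay below every library of experiment 2 (2.35 to 7.04 TPM), a difference across experiments that was not tested. Cd36 had the narrowest range over single libraries, the highest being 1.76 times the lowest. Its group means ran from 500 ± 36.7 TPM, after ovariectomy at 5 months (n = 5), to 688 ± 99.5 TPM in male air (n = 3).

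Promoter sequences from RefSeq (GRCm38.p6) were at hand for 6 of the 10 genes: Trem2, Gpnmb, Cd36, Plin2, Apoe and Lgals3. That of Gpnmb is shown with those of Trem2 and Lgals3 because Gpnmb covaried with each of them between libraries of the same group, calls that were lost without 1 library. That of Plin2 is shown because it held a motif match. Each window runs from 250 bases before to 50 bases after the start site, on the gene's own strand, and capitals mark a match. The windows are chr17:48346151-48346450 (+) for Trem2, chr6:49036268-49036567 (+) for Gpnmb, chr14:47373610-47373909 (+) for Lgals3 and chr4:86670010-86670309 (-) for Plin2.
Trem2: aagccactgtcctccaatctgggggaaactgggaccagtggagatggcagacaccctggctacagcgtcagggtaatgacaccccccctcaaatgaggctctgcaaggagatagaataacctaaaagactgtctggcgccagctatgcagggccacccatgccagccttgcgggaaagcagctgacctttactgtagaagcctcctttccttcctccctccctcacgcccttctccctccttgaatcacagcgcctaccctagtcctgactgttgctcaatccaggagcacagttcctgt
Gpnmb: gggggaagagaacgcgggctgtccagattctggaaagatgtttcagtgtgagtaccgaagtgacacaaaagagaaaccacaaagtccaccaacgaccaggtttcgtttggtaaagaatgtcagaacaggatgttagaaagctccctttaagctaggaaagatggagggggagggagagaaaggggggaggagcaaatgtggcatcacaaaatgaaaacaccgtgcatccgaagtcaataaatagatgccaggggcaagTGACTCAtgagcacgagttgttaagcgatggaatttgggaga
Lgals3: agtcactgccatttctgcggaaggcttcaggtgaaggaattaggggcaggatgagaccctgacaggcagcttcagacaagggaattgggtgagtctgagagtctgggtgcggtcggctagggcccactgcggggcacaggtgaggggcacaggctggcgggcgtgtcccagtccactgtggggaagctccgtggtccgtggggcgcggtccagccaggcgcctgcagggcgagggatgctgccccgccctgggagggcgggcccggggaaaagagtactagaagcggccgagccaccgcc
Plin2: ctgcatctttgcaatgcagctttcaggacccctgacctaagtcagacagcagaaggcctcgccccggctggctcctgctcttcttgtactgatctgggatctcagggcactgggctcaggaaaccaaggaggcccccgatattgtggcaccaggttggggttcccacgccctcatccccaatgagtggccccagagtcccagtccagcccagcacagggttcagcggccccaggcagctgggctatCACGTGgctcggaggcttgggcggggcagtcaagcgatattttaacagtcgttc
Searched on both strands, 5 motifs were CACGTG and CATGTG (E-boxes of the kind read by the lysosomal regulators MITF and TFEB), TGACTCA (AP-1), AGGTCA repeated after 1 further base (read by PPAR-gamma) and AGGTCA repeated after 4 further bases (read by LXR). The Gpnmb window holds TGACTCA, starting at base 9 after the start site, and 5.2% of 32851 mouse promoter windows of the same length hold it too. The Plin2 window holds CACGTG, as do 7.15% of all windows. The first base of this match lies 4 bases before the start site, so the match spans the start site. None of the motifs overlapped another in these windows, and the windows of Trem2, Lgals3, Cd36 and Apoe held none. CATGTG was in 14.2% of all windows, the PPAR-gamma repeat in 0.0396% and the LXR repeat in 0.0152%.

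Smoke against air at 5 months was the first question the design poses. No member was called at an adjusted p under 0.05 in either sex, against a background of 7.7% of 16361 genes in females and 10.3% in males (edgeR's quasi-likelihood test, Benjamini-Hochberg adjustment over all genes). At an unadjusted p under 0.05 the test marked 1 member in females (Abcg1) and 1 in males (Fabp5). Of all genes it marked 21.3% in females and 23.2% in males. DESeq2 called 1677 genes and 0 members in females, and 2029 genes and 1 member in males. The median log2 fold change of the 10 genes was 0.17 in females, beside -0.013 over all genes, and 0.14 in males, beside 0.007. No member had groups that did not overlap in CPM, beside 14.5% of all genes in females and 16.8% in males.

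Of the receptors and surface proteins, Gpnmb stood at 8.75, 13.2, 12.3, 15.3 and 7.93 TPM in female smoke and at 10.01, 8.80 and 8.52 TPM in female air. Of the smoke libraries, 3 lay above every air library and 1 lay below all of them; the log2 fold change was 0.28 (95% interval -0.12 to 0.67). In males the log2 fold change of Gpnmb was 0.15 (-0.24 to 0.54). Trem2 was lowest in male air, at 2.27, 1.64 and 1.83 TPM, against 2.59, 3.71, 2.83, 1.78 and 2.35 TPM in male smoke. Its log2 fold change was 0.49 in males (SE 0.26, adjusted p = 0.269) and -0.08 in females (SE 0.25, adjusted p = 0.897), and the sexes' effects were not shown to differ (log2 difference -0.57, 95% interval -1.32 to 0.18). Lgals3 had log2 fold changes of 0.24 in females (adjusted p = 0.239) and 0.23 in males (adjusted p = 0.251). Cd36 gave the narrowest intervals. Its ratio of smoke to air lay between 0.922 and 1.19 in females and between 0.839 and 1.08 in males.

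Among the genes of lipid entry and transport, Fabp5 came nearest to a call. It stood at 75.9, 86.1, 75.3, 60.3 and 78.8 TPM in male smoke, against 67.5, 51.0 and 44.8 TPM in male air. Only smoke library 4 fell below an air library, air library 1, which is one of those with liver RNA (Alb 262 CPM). The log2 fold change was 0.49 (SE 0.15, adjusted p = 0.053). Without the libraries over 100 CPM of Alb it was 0.68 (adjusted p = 0.0028). Among males that setting drops only air library 1, which holds the highest air value. Over 18 alternative settings the log2 fold change ran from 0.32 to 0.68, and 5 of them gave a call. In females Fabp5 stood at 53.8, 62.5, 82.4, 73.7 and 65.8 TPM in smoke and 66.7, 58.6 and 60.2 TPM in air, a log2 fold change of 0.07 (SE 0.15). The female effect minus the male effect was -0.41 on the log2 scale (95% interval -0.86 to 0.04, adjusted p = 0.858). The near copy Fabp5l2 held 0 to 5 counts per library, against 1075 to 3320 for Fabp5.

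Fabp4 had the largest estimate in females and the widest spread. Its levels were 151, 168, 197, 216 and 341 TPM in female smoke and 146, 94.5 and 141 TPM in female air. All 5 smoke libraries lay above all 3 air libraries in TPM, but in CPM the groups overlapped, and the log2 fold change of 0.70 (SE 0.43) had a 95% interval from -0.24 to 1.63. In male smoke Fabp4 ranged from 77.3 to 294 TPM around a median of 161, against 88.0, 172 and 184 TPM in male air (log2 fold change 0.27, SE 0.43). Lpl had log2 fold changes of 0.28 in females (SE 0.16, adjusted p = 0.349) and 0.12 in males (SE 0.16, adjusted p = 0.71).

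For storage and export, Plin2 had log2 fold changes of 0.10 in females and -0.11 in males (SE 0.13 each). Abcg1 stood at 55.5, 72.1, 63.9, 73.8 and 43.6 TPM in female smoke and at 48.8, 46.9 and 41.5 TPM in female air. In all, 4 smoke libraries exceeded every air library, and the log2 fold change was 0.38 (SE 0.17, adjusted p = 0.21). In males it was 0.04 (SE 0.17), with 57.2 ± 14.2 TPM in smoke (n = 5) and 56.5 ± 4.82 TPM in air (n = 3). For Apoe they were -0.13 in females and -0.06 in males (SE 0.13 each).

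**Figure D2:**
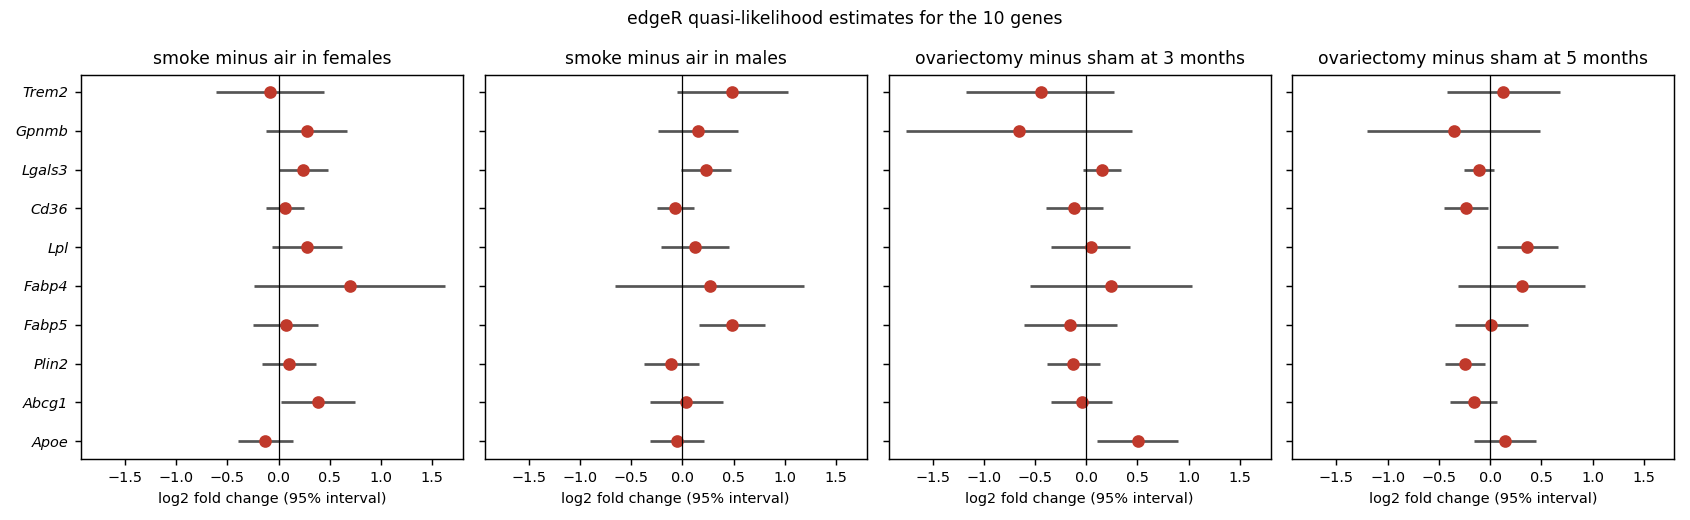
Log2 fold change of each gene (points) with its 95% interval (lines) for smoke minus air in females and males and ovariectomy minus sham at 3 and 5 months, from edgeR's quasi-likelihood fit. Most intervals include 0, and none of the 40 estimates was called at an adjusted p under 0.05, Fabp5 in males being nearest at 0.053.

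Other genes of cholesterol handling passed the test with smoke. In the list of 16 LXR target and cholesterol handling genes, 4 rose and 2 fell in females, and 5 rose and 2 fell in males, beside a background of 4.52% of all genes higher and 3.18% lower in females and 4.93% and 5.33% in males. Nceh1, which frees cholesterol from its stored esters, rose by 0.35 on the log2 scale in females (SE 0.10, adjusted p = 0.0251) and 0.47 in males (SE 0.10, adjusted p = 0.00275). Soat1, which makes those esters, rose by 0.32 in females (SE 0.10, adjusted p = 0.0421) and 0.37 in males (SE 0.10, adjusted p = 0.015). The cholesterol exporter Abca1 rose by 0.29 in females (adjusted p = 0.0215) and 0.26 in males (adjusted p = 0.0303). Npc1, which carries cholesterol out of lysosomes, was called in females (0.44, adjusted p = 0.0109), and the LXR target Mylip (0.32, adjusted p = 0.0367) and the lipogenic regulator Srebf1 (0.25, adjusted p = 0.0497) were called in males. The lipid transfer protein Pltp fell by 0.55 in females (adjusted p = 0.00488) and by 0.66 in males (adjusted p = 0.000776). Scarb1, the high-density lipoprotein receptor, fell by 0.56 in females (adjusted p = 0.0303) and by 0.93 in males (adjusted p = 0.000776). Of 18 alternative settings, Nceh1, Pltp and Scarb1 lost the call in 0 in males, whereas in females Soat1 lost it in 9 and Abca1 in 7, and in males Abca1 lost it in 11 and Srebf1 in 12. The list's median was -0.03 in females and 0.08 in males.

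**Figure D3:**
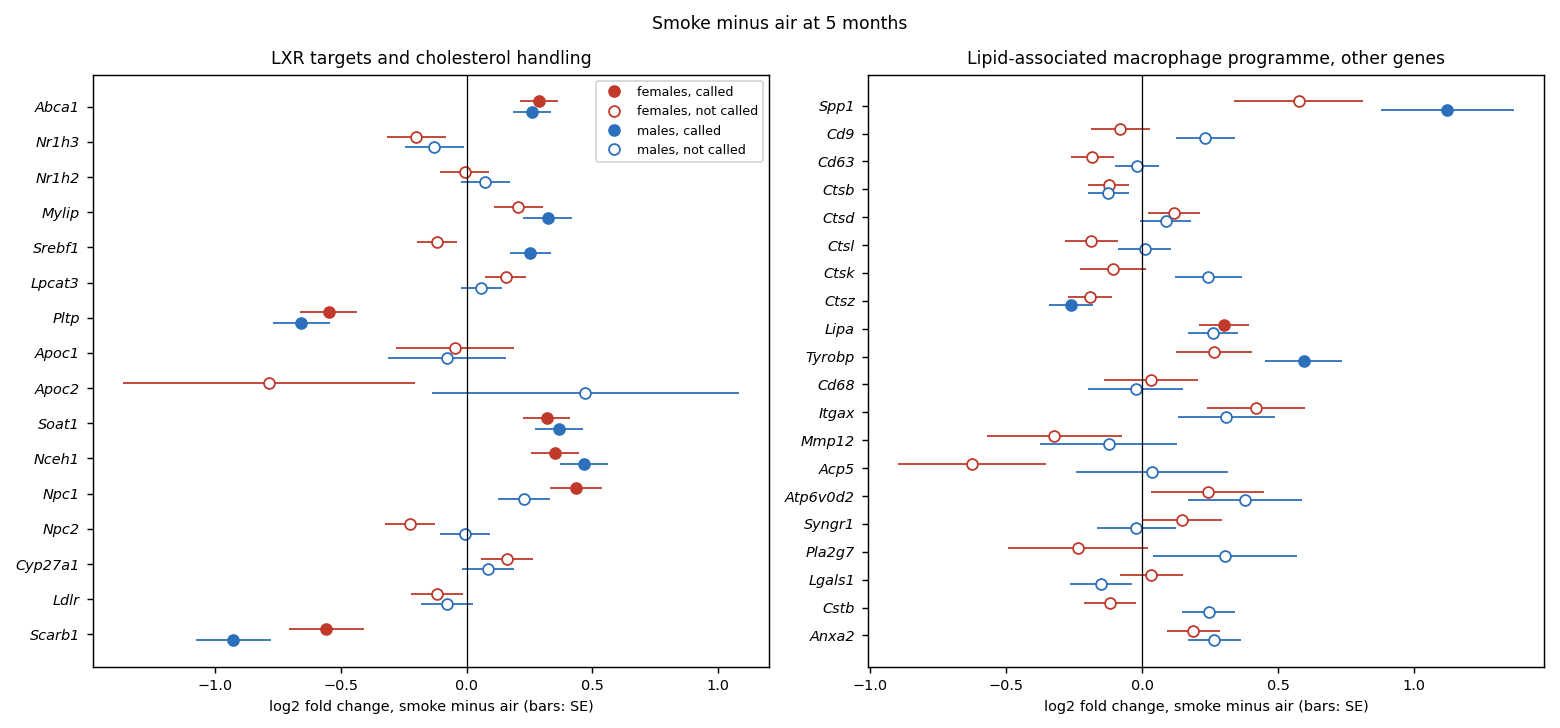
Log2 fold change of smoke minus air (points, with SE as bars) in females (red) and males (blue) for 16 LXR target and cholesterol handling genes (left) and 20 other genes of the lipid-associated macrophage programme (right). Filled points were called at an adjusted p under 0.05: 6 in females and 7 in males on the left, and 1 in females and 3 in males on the right.

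Of 20 other genes of the lipid-associated macrophage programme, 1 rose in females and 2 rose and 1 fell in males. In males, Spp1, the secreted matrix protein osteopontin, rose by 1.12 on the log2 scale (SE 0.24, adjusted p = 0.0106), and Tyrobp, the adaptor through which TREM2 signals, rose by 0.59 (SE 0.14, adjusted p = 0.0108). The lysosomal protease Ctsz fell by 0.26 in males (adjusted p = 0.039), a call lost in 8 of 18 settings. In females the lysosomal acid lipase Lipa rose by 0.30 (SE 0.09, adjusted p = 0.05 after rounding), and this call was lost in 11 of 18 settings. Inpp5d, a phosphatase that restrains TREM2 signalling, fell in both sexes, by 0.71 in females (adjusted p = 0.000385) and by 0.60 in males (adjusted p = 0.00124), and was the 1 gene called of 10 in its list in either sex. None of 17 other lipid droplet genes was called in either sex, beside 7.7% of all genes in females and 10.3% in males.

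Lpl acts on the capillary wall, held there by Gpihbp1, which fell by 0.53 on the log2 scale in females (SE 0.12, adjusted p = 0.0082). Lrp1, a lipoprotein remnant receptor, fell by 0.54 in males (SE 0.09, adjusted p = 0.000314). Over all genes, 4.52% were called higher and 3.18% lower in females, and 4.93% and 5.33% in males. Beside these shares, of 9 markers of general capillaries, 5 fell and 1 rose in females and 6 fell in males. Aplnr fell by 0.81 in females (adjusted p = 0.000933) and by 1.01 in males (adjusted p = 9.57e-05), and Sema3c rose by 0.32 in females (adjusted p = 0.025). Cd36, which capillary endothelium also expresses, did not pass the test while these markers fell. Alveolar macrophage markers gave 1 of 13 higher and 1 lower in each sex, with summed levels of 1010 to 1620 TPM in female smoke, 1140 to 1720 in female air, 836 to 1350 in male smoke and 913 to 1160 in male air. Adipocyte markers gave 3 of 11 higher in males (Lep, Retn and Thrsp) and 0 in females. The part of any of these marker changes in the members' values was not tested.

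No member was called between females and males. In smoke, 0.189% of all genes were called between the sexes and 0 of 10 members, with log2 differences (females minus males) from -0.19 for Apoe to 0.26 for Fabp4. In air, 0.177% of all genes were called and 0 members, with differences from -0.25 for Abcg1 and Lpl to 0.45 for Trem2. Plin2 was the 1 member whose groups did not overlap in air, at 151, 157 and 144 TPM in females and 168, 159 and 198 TPM in males, beside 16.7% of all genes (log2 difference -0.16, adjusted p = 0.783). In smoke 0 members and 1.6% of all genes had groups apart. The smoke effect differed between the sexes in 0.00611% of genes, 1 gene in all, and in 0 members. At an unadjusted p under 0.05 edgeR marked no member in these 3 comparisons. Of all genes it marked 7.74% in smoke, 9.27% in air and 5.75% for the difference in the smoke effect. DESeq2 and limma called no member in them.

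Ovariectomy was compared with sham surgery under smoke. At 3 months, 0% of 16874 genes were called, members included. At an unadjusted p under 0.05 edgeR marked 1568 genes and 1 member, and limma called 1 gene and DESeq2 98, none of them a member. Apoe was that member, at 1159, 1837 and 1746 TPM after ovariectomy and 1112, 1132 and 1227 TPM after sham surgery. The 2 high values are those of libraries 2 and 3, which carried liver RNA (Alb 499 and 1130 CPM), while library 1, with Alb at 1.43 CPM, lay inside the sham range. The log2 fold change was 0.50 (SE 0.18, adjusted p = 0.424), and without the libraries over 100 CPM of Alb, which leaves 1 ovariectomy library assumed to vary like the others, it was 0.01. Lgals3 was the 1 member whose groups did not overlap in CPM (205 to 221 after ovariectomy and 172 to 202 after sham surgery), beside 15.2% of all genes, and in TPM they did overlap (315 to 325 against 269 to 319). Gpnmb was 7.46, 9.42 and 8.81 TPM after ovariectomy and 7.31, 19.5 and 15.2 TPM after sham surgery, a log2 fold change of -0.66 with a 95% interval from -1.76 to 0.45.

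At 5 months ovariectomy changed 1.36% of all genes (0.587% higher and 0.776% lower) and 0 of 10 members. An unadjusted p under 0.05 was reached by 3 members, not all in the same direction, beside 15.5% of all genes. Lpl stood at 151, 121, 126, 107 and 136 TPM after ovariectomy, against 109, 95.3, 148, 95.2 and 76.7 TPM after sham surgery. Sham library 3 was the only sham library above 110 TPM. The log2 fold change was 0.36 (SE 0.14, adjusted p = 0.217), and without that sham library it was 0.51 (adjusted p = 0.0268), the 1 setting of 20 in which Lpl was called. Plin2 was 142, 141, 168, 146 and 143 TPM after ovariectomy and 198, 155, 195, 161 and 212 TPM after sham surgery. Only ovariectomy library 3 exceeded any sham library, and the log2 fold change was -0.24 (SE 0.10, adjusted p = 0.206). Cd36 was 467, 558, 469, 501 and 504 TPM after ovariectomy and 823, 513, 625.4, 541 and 581 TPM after sham surgery. Its log2 fold change was -0.23 (SE 0.10, adjusted p = 0.284), with 1 ovariectomy library above a sham library. Members with groups apart numbered 0, beside 3.85% of all genes.

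The other members had an unadjusted p above 0.05 at 5 months. The log2 fold change was -0.35 for Gpnmb (SE 0.39) and 0.13 for Trem2 (SE 0.27), and sham library 3 decided both. Without it the values were 0.19 for Gpnmb (adjusted p = 0.803), the opposite direction, and 0.54 for Trem2 (adjusted p = 0.247). It was 0.31 for Fabp4 (SE 0.28), 0.14 for Apoe (SE 0.14), -0.16 for Abcg1 (SE 0.11), -0.10 for Lgals3 (SE 0.07) and 0.01 for Fabp5 (SE 0.16). None of the 16 cholesterol handling genes, the 20 other programme genes or the 17 lipid droplet genes was called. Of 11 scavenger receptors, Colec12 rose by 0.34 (SE 0.07, adjusted p = 0.0173) and Scara5 by 0.60 (SE 0.14, adjusted p = 0.0379), the second lost in 11 of 20 settings. The effect of ovariectomy differed between 5 and 3 months in 0% of genes; edgeR marked 844 genes and 1 member, Lgals3, at an unadjusted p under 0.05 (log2 difference -0.26, adjusted p = 0.938), limma called 0 genes and DESeq2 17, none a member.

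From 3 to 5 months of smoke, averaged over the 2 surgeries, 0.13% of genes changed and 0 members. Of all genes, 13.4% had an unadjusted p under 0.05. Plin2 was the only member among them, at 0.17 on the log2 scale (SE 0.08, adjusted p = 0.358). It averaged 148 ± 11.6 TPM at 5 months and 141 ± 18.8 at 3 months after ovariectomy, and 184 ± 24.8 at 5 months and 160 ± 23.3 at 3 months after sham surgery (SD, n = 5 at 5 months and 3 at 3 months). The log2 fold changes of the other 9 ran from -0.16 for Fabp4 to 0.17 for Trem2.

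Libraries of the same group also differed, and some members varied together. After each group's mean was subtracted from log2 CPM, 6 of the 45 pairs of members were called by both Pearson's r and Spearman's rho over the 32 libraries (two-sided permutation within groups, 100000 resamples, adjusted over 45 pairs). Gpnmb and Trem2 had r = 0.68 (permutation p = 0.00151, adjusted p = 0.017) and rho = 0.56 (p = 0.00317, adjusted p = 0.0238), and r was 0.54 without the 2 libraries farthest from the median of Trem2. Gpnmb and Abcg1 had r = 0.63 (permutation p = 0.0002, adjusted p = 0.00922) and rho = 0.73 (p = 9e-05, adjusted p = 0.00405), and r was 0.68 without the 2 farthest libraries. Lpl and Abcg1 had r = 0.62 (permutation p = 0.0004, adjusted p = 0.00922) and rho = 0.63 (p = 0.0005, adjusted p = 0.0106), and r was 0.63 without the 2 farthest. The other pairs were Gpnmb with Lpl (r = 0.64, rho = 0.61), Gpnmb with Lgals3 (0.47, 0.53) and Fabp5 with Lgals3 (0.60, 0.60), and without the 2 farthest libraries r was 0.54, 0.37 and 0.58. Cd36, Fabp4, Plin2 and Apoe were in none of the 6 pairs.

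**Figure D4:**
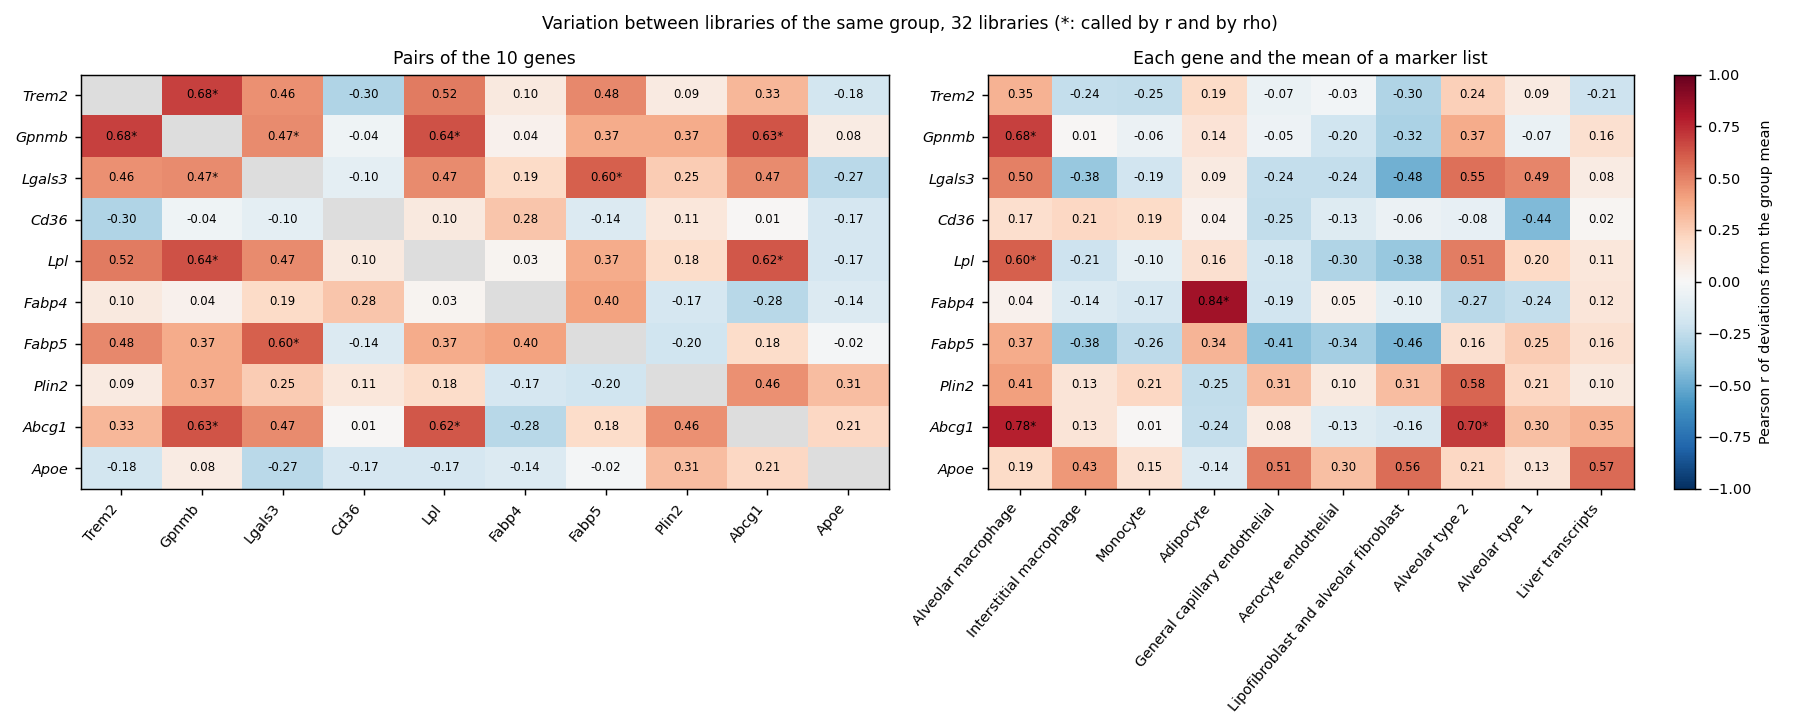
Pearson r of deviations from the group mean in log2 CPM over 32 libraries, between pairs of the 10 genes (left) and between each gene and the mean of a marker list (right), on a colour scale from -1 to 1. Asterisks mark the 6 of 45 pairs and the 5 of 100 gene and list relations called by both r and rho.

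These variations were set beside markers of the cell types a lung sample can hold, 100 relations chosen after the pairs had been seen. Of these, 5 were called by both measures. Abcg1 followed the 13 alveolar macrophage markers (r = 0.78, rho = 0.80, each with a permutation p of 1e-05, the smallest it can give, and adjusted p = 0.0005). Gpnmb followed the same markers (r = 0.68, adjusted permutation p = 0.006; rho = 0.69, adjusted p = 0.00533), and so did Lpl (r = 0.60, adjusted permutation p = 0.0166; rho = 0.62, adjusted p = 0.0187). Without the 2 libraries farthest from the markers' median, r was 0.76 for Abcg1, 0.71 for Gpnmb and 0.55 for Lpl. Abcg1 also followed alveolar type 2 markers (r = 0.70, rho = 0.63, adjusted permutation p = 0.0142 and 0.0346), and r was 0.62 without the 2 farthest libraries. Plin2 and Lgals3 were called with these type 2 markers by r but not by rho. Plin2 had r = 0.58 (adjusted permutation p = 0.0245) and rho = 0.48 (adjusted p = 0.0851). Lgals3 had r = 0.55 (adjusted permutation p = 0.025) and rho = 0.55 (adjusted p = 0.0598). Trem2 had r = 0.35 with the alveolar macrophage markers (adjusted permutation p = 0.401), a relation that was not called.

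Fabp4 went another way: it followed the 11 adipocyte markers (r = 0.84, rho = 0.82, each with a permutation p of 1e-05 and an adjusted p of 0.0005; r = 0.78 without the 2 farthest libraries) and had r = 0.04 with the alveolar macrophage markers. In the library with the most Fabp4, female smoke library 5 at 341 TPM, Retn, an adipocyte hormone, was 28.3 TPM and Adipoq, another, 28.5 TPM. Neither hormone gene peaked there, as other female smoke libraries reached 33.1 TPM in Retn and 38.6 TPM in Adipoq. In the library with the least Fabp4, male smoke library 3 at 77.3 TPM, Retn was 7.92 TPM and Adipoq 11.1 TPM. Cd36 was called with none of the 10 marker lists; its r was 0.17 with alveolar macrophage markers, 0.04 with adipocyte markers and -0.25 with general capillary markers. Apoe had r = 0.57 with liver transcripts (adjusted permutation p = 0.103) and r = 0.56 with fibroblast markers, called by r (adjusted permutation p = 0.0349) but not by rho (0.53, adjusted p = 0.078).

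**Figure D5:**
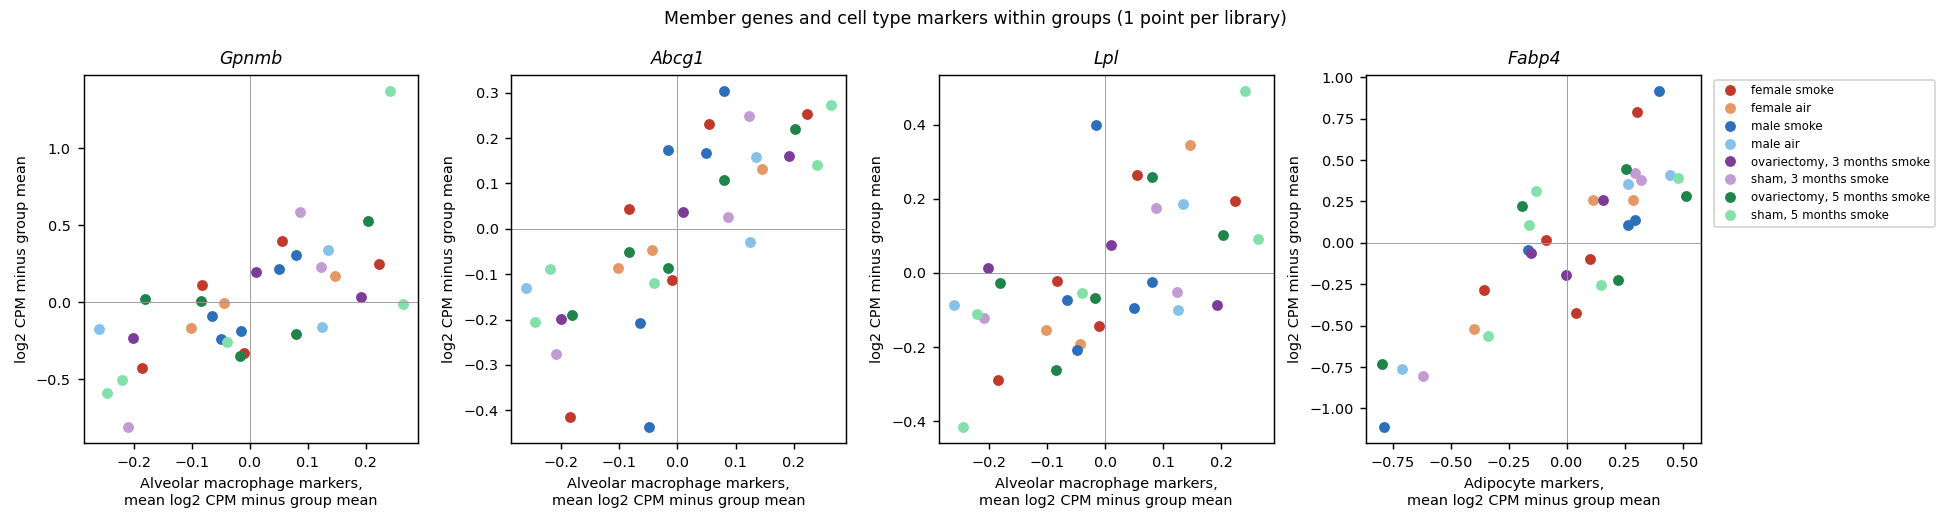
Deviation of each library from its group mean in log2 CPM for Gpnmb, Abcg1, Lpl and Fabp4 (vertical axes) against that of the mean of a marker list (horizontal axes), 1 point per library, coloured by group. Gpnmb, Abcg1 and Lpl climb with alveolar macrophage markers (r = 0.68, 0.78 and 0.60) and Fabp4 with adipocyte markers (r = 0.84).

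Over 13408 genes, the 3 with the highest r to each member were as follows. For Gpnmb they were the lysosomal protease genes Ctsd (r = 0.86) and Ctsk (0.80) and the proton pump subunit Atp6v0d2 (0.80). For Trem2 they were Pld3 (0.72), a lysosomal nuclease gene, Ctsd (0.69) and Atp6v0d2 (0.68). Lpl shared Atp6v0d2 (0.86), followed by Lamp3 (0.79) and Sec62 (0.77). Abcg1 was nearest to the alveolar macrophage surface genes Mrc1 (0.79) and Itgax (0.78) and to Lipa (0.77), and Fabp4 to the adipocyte genes Retn (0.85), Adipoq (0.80) and Cfd (0.78). Fabp5 was nearest to the lactate transporter gene Slc16a1 (0.76), Cstb (0.76) and Aacs (0.73), Plin2 to Map2k1 (0.78), Lpin2 (0.74) and the fatty acid oxidation gene Cpt1a (0.73), and Lgals3 to Fgfr2 (0.81), Rnase4 (0.75) and Rab32 (0.73). Cd36 was nearest to Rbm39 (0.80), Sema3c (0.80), which is on the general capillary list, and Akap8 (0.71). With the mean of that list's 9 markers, Cd36 had r = -0.25. Apoe was nearest to the sterol hydroxylase Cyp27a1 (0.77), Grrp1 (0.75) and Sox7 (0.75). The nearest genes are the top of a ranking and were not tested.

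A single library stood apart. Sham at 5 months library 3 had the highest value of all 32 libraries for 4 of the 10 members: Gpnmb (29.6 TPM, against 7.31 to 19.5 in the other 31), Trem2 (7.04, against 1.52 to 5.14), Fabp5 (125, against 44.8 to 96.2) and Lgals3 (401, against 213 to 340). It was singled out for the first pair of genes, after its values were seen. By comparison, 5.63% of 17344 genes peaked in that library. So did 11 of the 20 other programme genes, among them Ctsk (132 TPM, against 20.1 to 106), Ctsd (1329 TPM, against 607 to 922) and Mmp12 (6.09 TPM, against 1.42 to 4.95). Of the 13 alveolar macrophage markers, 5 peaked there, and Chil3 stood at 2465 TPM, against 357 to 1222 TPM elsewhere. The other 12 markers summed to 591 TPM, inside the 464 to 697 TPM of the other 4 sham libraries of that time. Their sum ranked 5 among the 32 libraries. It includes Fabp1, at 16.7 TPM here against 22.4 to 87.3 TPM in the other 4 sham libraries. Of these, libraries 1 and 2 carried Alb at 582 and 507 CPM. Singly, Plet1, Cd2, Ly75 and Bhlhe41 ranked 1, Kcnip4 2, Ear2 and Slc7a2 4, and Krt79 7. Ear1 ranked 17, Fabp1 19, Siglec5 26 and Car2 28. Cd36, Fabp4, Plin2, Lpl, Abcg1 and Apoe did not peak in it. Without this library, 2 of the 45 pairs of members kept both calls, Gpnmb with Abcg1 (r = 0.73) and Lpl with Abcg1 (r = 0.64), while the relations to alveolar macrophage markers stood at r = 0.78 for Abcg1, 0.67 for Gpnmb and 0.54 for Lpl.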

How the data were processed

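The members and gene lists were chosen with earlier results of these data known. RNA was isolated with Trizol and polyA libraries were made with a NEBNext Ultra 2 kit, per the labels' protocols. The authors deposited whole-number counts per gene and a table of normalized values. These values are TPM: 100% of them equal the deposited counts per gene length, scaled, within 1e-06. Deposited gene lengths (other) were used for that check. GRCm38, mm10 and FastQC are named in the submitters' processing notes. For the aligner and the read counter, the answer is: not given in the sources used here. Counting by strand is not stated, but no gene in the table overlaps a member.

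Counts were fitted per experiment with edgeR 4.0.16 (filterByExpr, TMM, 1 mean per group, robust quasi-likelihood) in R 4.3.3, with 16361 and 16874 genes tested. A call is an adjusted p under 0.05. CPM are TMM-scaled within an experiment, and intervals use the test's residual degrees of freedom. Alternatives used DESeq2 1.42.0, and limma 3.58.1 on log2(TPM + 1) or log2(TPM + 0.1). Covariation used log2 CPM with a prior count of 2 over all 32 libraries. Scripts were tested on simulated data. Named genes were all members, up to 4 called genes per list and comparison by smallest p, and the 3 genes nearest each member; other called genes of a list were named after their values were seen. No near-copies were found among the libraries of a group.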

Additional observations from a re-analysis of the deposited data

Results flagged for a closer look

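Of 40 checks of a member within a group of 4 to 10 libraries, 4 found 1 library far from its group; chance gives about 1 in 20. Gpnmb was 29.6 TPM in sham at 5 months library 3, against 7.34 to 10.99 TPM in the other 4. Trem2 was 7.04 TPM in the same library, against 2.42 to 2.68 TPM. In that library the alveolar macrophage marker Chil3 was 2465 TPM, against 444 to 891 TPM in the other 4. The other 12 markers of that list summed to 591 TPM, against 464 to 697 TPM, and this sum ranked 5 among the 32 libraries. Of those 12, Plet1, Cd2, Ly75 and Bhlhe41 ranked 1 there, while Siglec5 ranked 26 and Car2 28. Fabp1, also in the sum, was 16.7 TPM there, against 22.4 to 87.3 TPM in the other 4. Of these, libraries 1 and 2 carried Alb at 582 and 507 CPM. Apoe was 1730 TPM in ovariectomy at 5 months library 5, against 1137 to 1303 TPM in the other 4, and Alb was 1100 CPM in that library. Plin2 was 168 TPM in ovariectomy at 5 months library 3, against 141 to 146 TPM in the other 4. What sets these libraries apart was not tested.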

How the results depend on the processing

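No member was called in any comparison; over 1830 of their values under alternative settings, 93 changed sign and 6 gained a call. In males, Fabp5 made 1 member called under a stricter count filter (adjusted p = 0.0495) and under DESeq2 (adjusted p = 0.0122). It was also called without the libraries over 100 CPM of Alb, which among males leaves out only air replicate 1. Leaving out 1 library gave 0 to 1 members, 1 without air replicate 1 (0.68) or smoke replicate 4 (0.53). Ovariectomy at 5 months likewise gave 0 to 1. Covarying pairs numbered 2 of 45 without sham at 5 months library 3, 5 without the Alb libraries and 9 on the TPM scale.

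Counts over all genes moved by over 1.5 times as follows. Leaving out 1 library gave 490 to 1151 for smoke in females (main 1259), 962 to 1694 in males (1678), 0 to 4 for the sex difference in the smoke effect (1), 20 to 34 between sexes in smoke (31), 10 to 42 in air (29), 0 to 6 for ovariectomy at 3 months (0), 39 to 259 at 5 months (230) and 2 to 125 for time (22). DESeq2 gave 16, 61, 132, 98, 601 and 468 for the last 6, and 17 for the change of the ovariectomy effect with time (0). On log2(TPM + 1), limma gave 789 and 992 for smoke, 0, 15 in air, 1 at 3 months and 11 for time; on log2(TPM + 0.1) it gave 788, 991, 0, 12, 1 and 1. No count filter gave 3 at 3 months and 85 for time, a fit of 2 groups 2 at 3 months, all 32 libraries in 1 fit 3, 47, 6 and 52 (sex difference, air, 3 months, time), and leaving out Alb libraries 111 at 5 months and 135 for time.

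No pairing by replicate number was seen: 40 same-numbered pairs had correlations of -0.41 to 0.20 (median 0.015), 8 of them over 0.1. Pairs with different numbers were not compared, so pairing is not excluded. The replicate block gave 0 for the sex difference, 44 in air, 10 at 3 months and 74 for time, and called no member. Trem2 and Gpnmb, with 64 to 912 counts per library, have the widest counting error.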

Other observations

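Endothelial transcripts differed between the experiments more than Cd36, which endothelium also expresses. Cdh5 had a median of 74.1 TPM in experiment 2 and 260 TPM in experiment 1, and Pecam1 94.5 TPM and 296 TPM in the same order. Cd36 had medians of 568.4 and 645 TPM, and its ranges overlapped (467 to 823 and 564 to 776 TPM), while those of Cdh5 did not. Lpl, at medians of 108 and 145 TPM, and Abcg1, at 40.5 and 55.1 TPM, were lower in experiment 2. Higher there were Fabp4 (240 and 165 TPM), Fabp5 (82.2 and 66.2), Lgals3 (319.5 and 274.9), Apoe (1233 and 1062) and Trem2 (2.97 and 2.365). The ranges of each of these members overlapped between the experiments. Surgery cannot be told apart from experiment, since every mouse of experiment 2 had an operation and none of experiment 1 did. Males and air libraries are in experiment 1 only. No test was made.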
